A study of Homo sapiens with 10 samples.

Results

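The snoRNA host genes are genes whose transcripts carry small nucleolar RNAs (snoRNAs) inside them. Members were taken by name: every gene of the GENCODE v44 annotation called SNHG plus a number, together with GAS5, EPB41L4A-AS1 and ZFAS1. This gave 31 genes, all annotated as lncRNAs, of which 20 had counted intervals and are described here, among 31015 genes in all. The other 11 are GAS5, SNHG1, SNHG5, SNHG6, SNHG7, SNHG10, SNHG12, SNHG15, SNHG17, SNHG19 and SNHG28, and they were not analysed here. All 11 lie on the minus strand and all 20 measured members lie on the plus strand. The same strand gap held across lncRNAs, with 30158 counted intervals on the plus strand and 54 on the minus strand, against 29527 and 28685 for protein-coding genes.

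SLAM-seq was run on 22RV1, an established cell line from a prostate cancer that grows despite castration. Untreated cells (control) were set against cells given, over 4 h, SRPIN340 at 20 μM, Endovion at 50 μM, THZ531, or THZ531 and Endovion together, with 2 libraries in each of the 5 groups. SRPIN340 and Endovion were used as inhibitors of the splicing kinase SRPK1, and THZ531 inhibits the transcription kinase CDK12. The dose of THZ531 is 100 nM in the methods and 150 nM in the series text. All 5 groups received 4-thiouridine for the last 10 min, which is built into new RNA. After alkylation with iodoacetamide it appears in the reads as a C at a T position. No library without 4-thiouridine was available, so how many such reads arise without the label is not known here. A read with a T>C conversion was counted as nascent RNA and all reads as total RNA. The percentage of reads with a conversion is called the labelled share. It was not adjusted for the number of T positions a read covers, which differed between intervals. The sources used here do not say that the 2 libraries of a group came from separate cultures, so the p-values measure the spread between these libraries, which may be technical.

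A snoRNA host transcript serves mainly as a carrier. The snoRNA lies in an intron in most hosts, is trimmed out of the excised intron, and then guides a chemical change on ribosomal or spliceosomal RNA: box C/D snoRNAs guide 2′-O-methylation with fibrillarin, and box H/ACA snoRNAs guide pseudouridylation with dyskerin. The spliced exons of many hosts hold only short reading frames and are removed by nonsense-mediated decay, a pathway that degrades transcripts with an early stop codon. Several hosts begin with a run of C and T letters, the terminal oligopyrimidine start best known from ribosomal protein genes. In bulk libraries such as these, fewer cells that express a gene and less RNA per cell cannot be told apart.

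The snoRNAs below are shown because they lie in the hosts with most reads and because reads were also counted on most of them, as described further on. They were read from the hg38 genome at the annotated positions, on the plus strand, 5′ to 3′. In the box C/D snoRNAs the capitals mark the letters TGATGA (box C) near the start and CTGA (box D) near the end, and in the box H/ACA snoRNAs they mark the letters ACA near the end. The hosts are SNHG29 for SNORD49A (chr17:16440036-16440106) and SNORD65 (chr17:16441226-16441298), ZFAS1 for SNORD12 (chr20:49280683-49280772), SNHG8 for SNORA24 (chr4:118279190-118279320) and SNHG25 for SNORA50C (chr17:64146339-64146471).
SNORD49A: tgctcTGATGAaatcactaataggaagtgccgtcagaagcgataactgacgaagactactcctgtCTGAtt
SNORD65: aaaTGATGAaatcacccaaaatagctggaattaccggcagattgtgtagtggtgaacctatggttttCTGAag
SNORD12: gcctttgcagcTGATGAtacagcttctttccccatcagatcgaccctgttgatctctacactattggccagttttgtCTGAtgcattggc
SNORA24: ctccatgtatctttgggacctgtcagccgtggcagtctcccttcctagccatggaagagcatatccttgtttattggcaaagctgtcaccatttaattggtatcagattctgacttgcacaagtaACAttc
SNORA50C: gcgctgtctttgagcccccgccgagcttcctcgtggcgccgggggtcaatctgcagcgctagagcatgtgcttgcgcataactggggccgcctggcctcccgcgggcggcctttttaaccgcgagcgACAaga

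The letters were searched on the strand of the snoRNA only. The snoRNAs were classed by their annotated names, and the classes are named for these boxes. A high count therefore follows from the annotation and is not a test. Of 99 box C/D snoRNA genes annotated inside the 20 measured members, 84 held both TGATGA in their first 20 bases and CTGA in their last 15, against 0 of the 99 stretches of equal length that lie directly downstream. SNHG14, the long imprinted transcript of the Prader-Willi region, carries most of them, since 79 of the 99 are copies of SNORD115 and SNORD116. Of 12 box H/ACA snoRNA genes, 11 held ACA in their last 8 bases, against 1 of the stretches downstream.

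A window around the annotated start was available for 18 of the 20 members from RefSeq (GRCh38.p14). The windows shown here run from 20 bases before the start to 40 bases from it, plus strand, with the unbroken run of C and T letters that begins with a C at the start itself in capitals. They are shown for ZFAS1 (chr20:49278622-49278681), SNHG32 (chr6:31834896-31834955) and SNHG4 (chr5:139274081-139274140), which have such a run, and for SNHG3 (chr1:28505923-28505982), which has none.
ZFAS1: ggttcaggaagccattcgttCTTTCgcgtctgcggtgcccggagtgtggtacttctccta
SNHG32: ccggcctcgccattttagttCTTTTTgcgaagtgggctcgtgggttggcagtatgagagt
SNHG4: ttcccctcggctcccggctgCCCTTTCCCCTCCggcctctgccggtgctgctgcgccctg
SNHG3: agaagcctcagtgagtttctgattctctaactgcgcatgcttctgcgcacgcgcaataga
A run of at least 5 such letters was found at the start of 4 of the 18 members (ZFAS1, SNHG32, SNHG4 and SNHG18) and at 4.07% of all 35116 starts in the table. The search covered the gene's strand and the annotated start only, so a start used a few bases away is not seen. ZFAS1 and SNHG4 gave enough reads to be tested below, SNHG32 and SNHG18 did not.

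The libraries held between 19315393 and 30047684 reads on genes and between 1011595 and 1576106 T>C reads, 5.04% to 5.70% of the reads. The prostate markers of the cell type list were all detected, and their summed level ranged from 1526 to 1993 CPM (counts scaled to a common library size, by TMM for single genes) over the 10 libraries. The summed immune markers ranged from 1.39 to 3.13 (1 of 4 at 0), the fibroblast markers from 2.53 to 4.69 (1 of 5 at 0) and the endothelial markers from 0 to 0.0316 (2 of 3 at 0). Control replicate 2 stood apart from control replicate 1 in several members, as the values below show.

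Over the 10 libraries, reads on members ranged widely. SNHG29 had 139514 reads, SNHG8 81242, SNHG25 64540, ZFAS1 44513, SNHG16 35030, EPB41L4A-AS1 23663, SNHG9 20485, SNHG4 16064, SNHG14 15109 and SNHG3 14192. SNHG20 had 4113 reads, SNHG21 3562, SNHG11 1566, SNHG30 1555, SNHG26 618 and SNHG31 242. Too few reads for a test fell on SNHG32 (37), SNHG22 (23), SNHG27 (6) and SNHG18 (0). The filter on low counts thus passed 16 of the 20 members for total RNA and 15 for nascent RNA, SNHG31 with 4 T>C reads being the difference. These are read totals and not levels per length, so they set the precision of each gene and are not an order of expression.

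**Figure D1:**
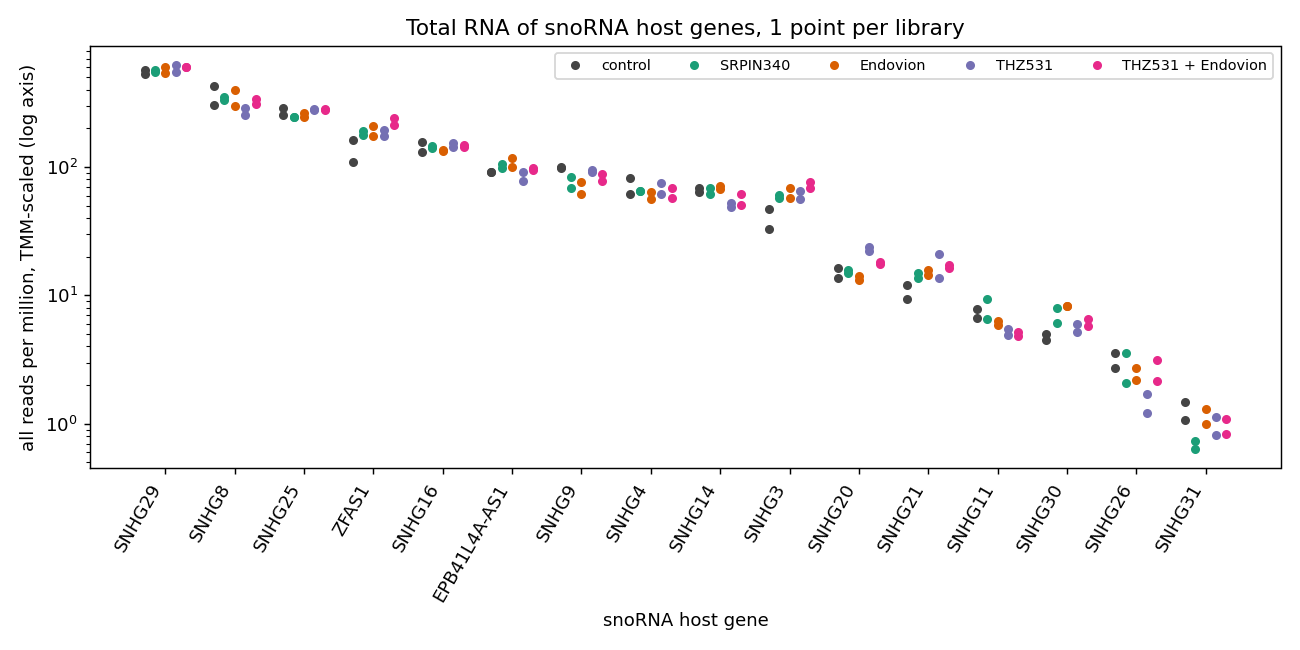
Total RNA in TMM-scaled CPM on a log axis, for the 16 members tested in total RNA, with 1 point per library and colors for the 5 groups. Most members keep within a narrow band across treatments, while control replicate 2 lies lowest for ZFAS1 (109) and SNHG3 (33.0).

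Most hosts were read almost entirely through a single interval at the 3′ end, as the libraries are made from 3′ ends. That interval held 99.9% of the reads of SNHG3, 99.7% of SNHG25, 98.0% of SNHG21, 97.4% of SNHG4 and 95.5% of SNHG30. ZFAS1, a host of 3 copies of SNORD12 that starts opposite ZNFX1, was read through 2 main intervals. Its terminal exon (chr20:49289045-49289260) had 37537 reads, of which 2.58% had a conversion, and the interval that holds SNORD12 (chr20:49280485-49281181) had 5708 reads, of which 4.96% had one. The share was higher in the interval with SNORD12 in 8 of the 10 libraries.

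SNHG29, host of SNORD49A, SNORD49B and SNORD65, showed a wider contrast of the same kind. Its terminal interval (chr17:16441368-16442028) had 137564 reads with a labelled share of 3.38%, and a short interval upstream of SNORD65 (chr17:16441074-16441130) had 1286 reads with 15.8%. The share of the short interval was the higher one in 10 of 10 libraries. It was 9.41% and 8.0% in the controls, 14.3% and 11.2% with SRPIN340, 4.17% and 12.1% with Endovion, 21.2% and 19.6% with THZ531, and 33.5% and 14.2% with THZ531 and Endovion. These intervals were chosen for their read number, and differences between treatments within them were not tested.

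**Figure D2:**
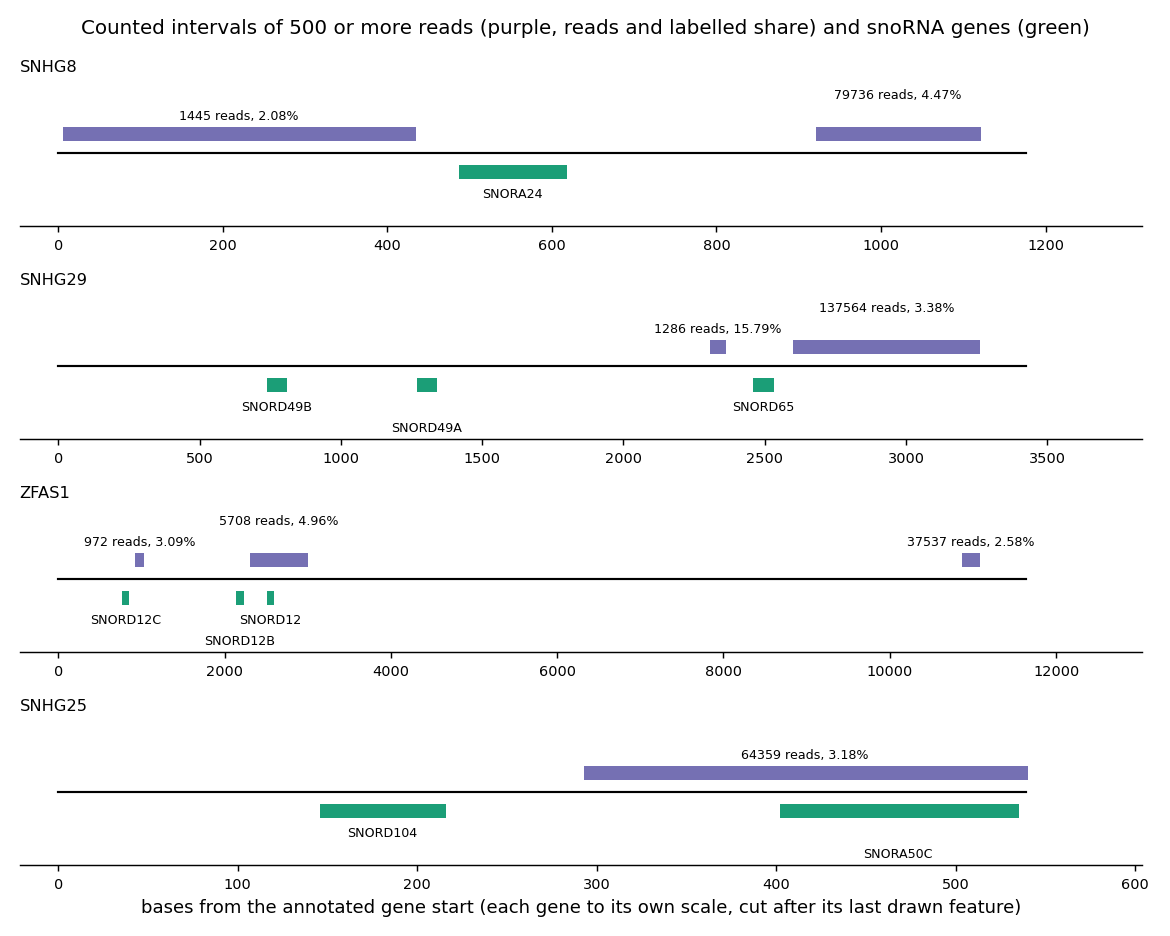
Map of 4 hosts in bases from the annotated gene start, each to its own scale, with counted intervals of at least 500 reads (purple, labelled with reads over 10 libraries and pooled labelled share) and snoRNA genes (green). Reads gather at the 3′ end, and SNORA50C lies inside the SNHG25 interval that holds 64359 reads.

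Some intervals share their sequence with other genes on the same strand, and reads there cannot be assigned to the host alone. The SNHG3 interval overlaps exons of RCC1, the SNHG4 interval those of MATR3, the SNHG20 interval those of SEC14L1, the SNHG9 interval the snoRNA gene SNORA78 and the SNHG25 interval SNORA50C. The SNHG21 interval with 98.0% of its reads overlaps exons of ENSG00000252690 on the same strand. An SNHG14 interval with 16.9% of its reads overlaps those of ENSG00000214265. The ZFAS1 interval that holds SNORD12 (12.8% of its reads) overlaps those of ENSG00000277967. Exons on the opposite strand lie across the intervals of SNHG21 (FSD2), SNHG29 (LRRC75A) and EPB41L4A-AS1 (EPB41L4A). The counts separate strands as far as could be tested: of 193 intervals with at least 100 reads that lie inside an interval of the opposite strand, 109 had more reads than the interval around them, which could not occur if both strands were counted.

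In control cells the median labelled share of the 15 members tested was 4.83%, against 5.19% for all 9946 genes tested, 4.91% for 196 protein-coding hosts of snoRNAs and 7.13% for 318 other lncRNAs. The members spread from 2.93% in ZFAS1 and 2.99% in SNHG25 to 14.02% in SNHG26, host of SNORD93. SNHG30 had 8.13%, SNHG14 7.36%, SNHG20 7.12%, SNHG21 6.22% and SNHG9 5.99%, all above the median of all genes. SNHG8 had 4.83%, SNHG29 3.48%, SNHG16 3.39% and SNHG11 3.18%. The control values rest on 15 and 8 T>C reads for SNHG26, 17 and 3 for SNHG30, and 0 and 12 for SNHG11.

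**Figure D3:**
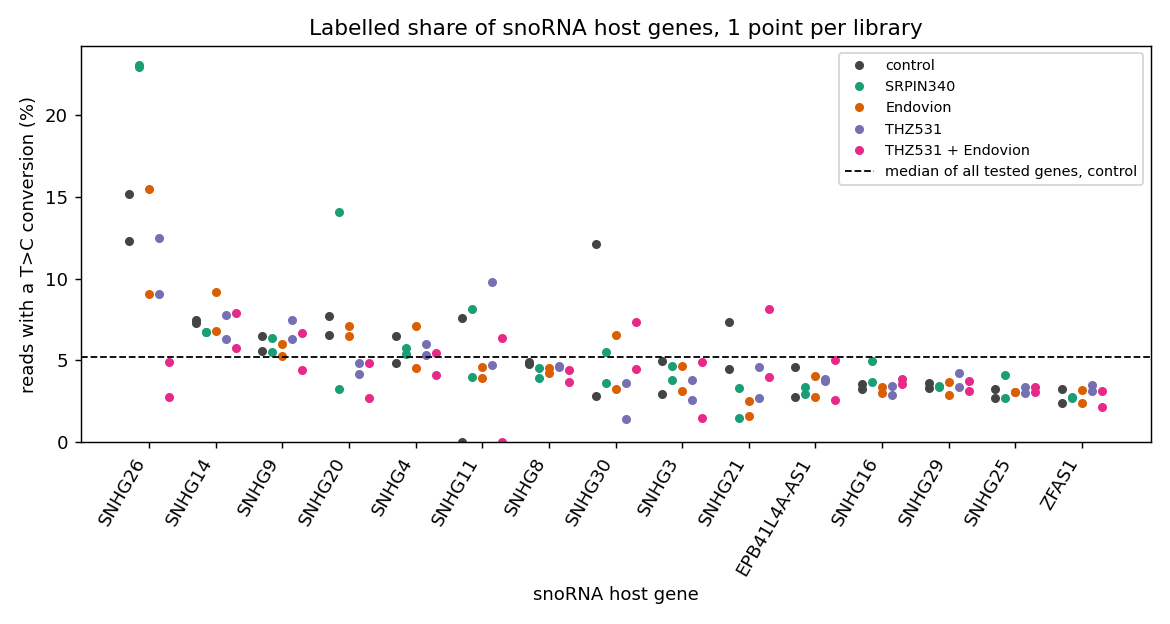
Percentage of reads with a T>C conversion for the 15 members tested in nascent RNA, with 1 point per library, colors for the 5 groups and a dashed line at the median of all genes tested in control cells (5.19%). ZFAS1, SNHG25, SNHG29, SNHG16, SNHG8, SNHG3 and EPB41L4A-AS1 lie below the line in every library, and SNHG26 spans 2.78% to 23.1%.

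Total RNA of single hosts changed with Endovion, THZ531 and the combination, and no member was called with SRPIN340. A member was called at a Benjamini-Hochberg adjusted p under 0.05 over all 14689 genes tested, by edgeR's quasi-likelihood test in 1 fit over the 10 libraries. With SRPIN340, 0 of 16 members were called (1 by DESeq2), against 1.96% of all genes. At an unadjusted p under 0.05 there were 4 members, beside 2833 of the 14689 genes. With Endovion, 3 of 16 were called, against 11.4% of all genes. Of these, 2 rose (8.9% of all genes did) and 1 fell (2.54%). With THZ531, 5 of 16 were called, against 30.7% of all genes, 3 up (16.6%) and 2 down (14.1%). With THZ531 and Endovion, 3 of 16 were called, against 29% of all genes, and all 3 rose (16.6% of all genes did). Given these backgrounds, the shares of members called do not set the hosts apart. The median log2 fold change of the 16 members was 0.01 with SRPIN340, -0.08 with Endovion, -0.02 with THZ531 and 0.04 with the combination, beside 0.03, 0.02, -0.01 and -0.002 over all genes. Of the 10 prostate markers, 2 rose and 5 fell with THZ531 and with the combination alike, and 2 fell with Endovion, and the part of this in the changes of the hosts was not tested.

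**Figure D4:**
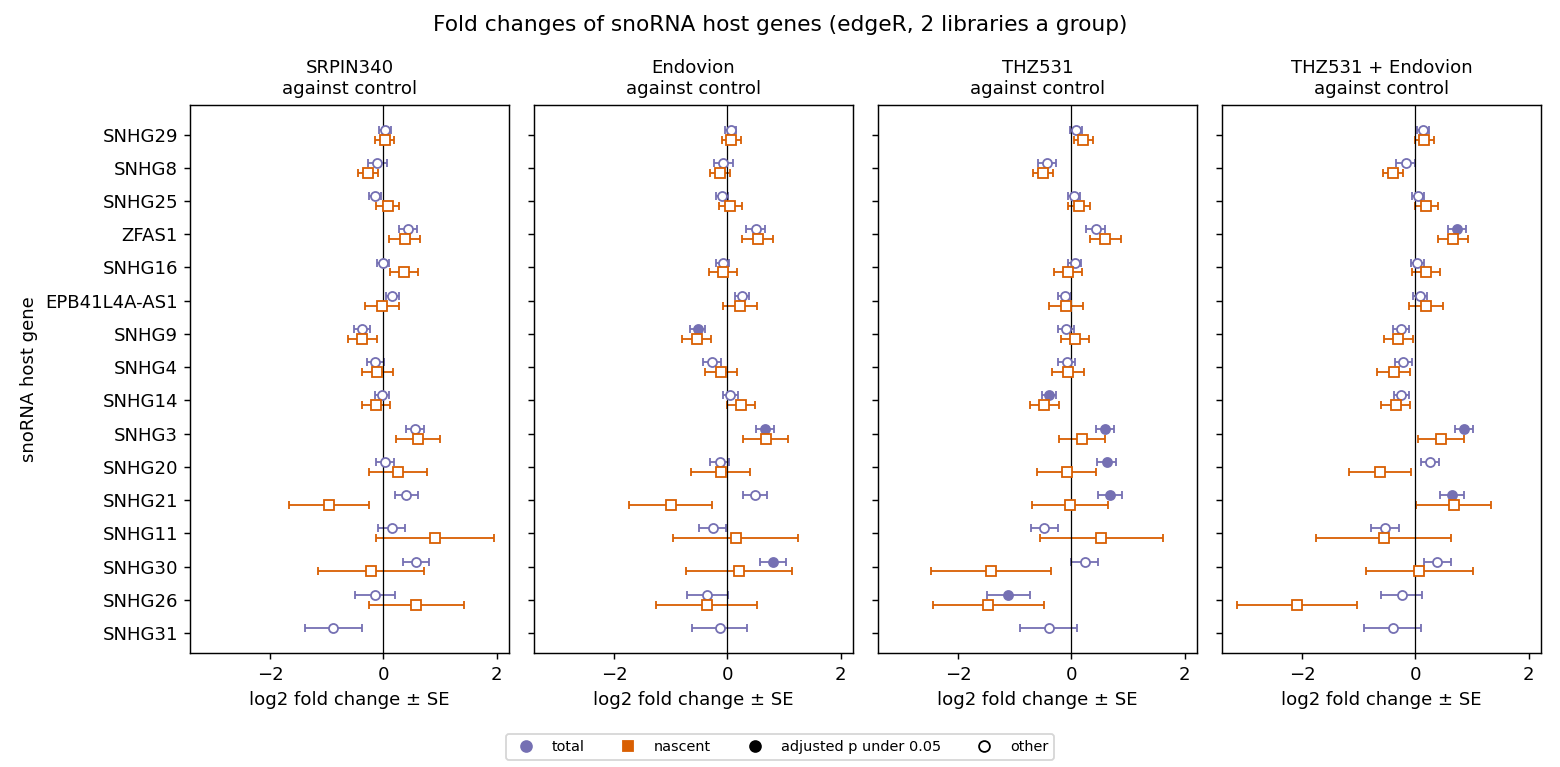
Log2 fold change against control with its standard error for total RNA (circles) and nascent RNA (squares), for the 16 members in 4 comparisons that share the control libraries. Filled symbols mark an adjusted p under 0.05 (edgeR, 2 libraries per group), and they occur for total RNA of SNHG3, SNHG30, SNHG9, SNHG20, SNHG21, SNHG14, SNHG26 and ZFAS1.

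SNHG3 carries SNORA73A and SNORA73B, the H/ACA snoRNAs known for their part in processing of 18S ribosomal RNA rather than for guiding a modification. Its total RNA was 46.8 and 33.0 CPM in control, 57.6 and 60.04 with SRPIN340, 57.9 and 69.0 with Endovion, 55.9 and 64.5 with THZ531, and 76.1 and 68.1 with both drugs. All 8 treated libraries lay above both controls, and the second control library was the lowest of all. For this host and those below, how often all genes separate from the controls in this way was not counted. The comparisons share the same control libraries. Members that were not called separated too, such as EPB41L4A-AS1 in total RNA with every treatment. The log2 fold change was 0.85 with THZ531 and Endovion (SE 0.16, adjusted p = 0.00121, edgeR), 0.67 with Endovion (adjusted p = 0.0156), 0.59 with THZ531 (adjusted p = 0.0109) and 0.56 with SRPIN340, which was not called (adjusted p = 0.0757). Without control replicate 2 the change with both drugs was 0.58 and still called (adjusted p = 0.0235), while those with Endovion (0.39, adjusted p = 0.239) and THZ531 (0.32, adjusted p = 0.176) were not. Leaving out Endovion replicate 2 (0.53, adjusted p = 0.137) or THZ531 replicate 2 (0.43, adjusted p = 0.129) had the same effect, and the THZ531 call was also lost in a fit of the compared groups alone (0.57, adjusted p = 0.0527). The change with SRPIN340 was called by DESeq2 (0.53, adjusted p = 0.0452), without the filter on low counts (0.52, adjusted p = 0.00835) and without control replicate 1 (0.84, adjusted p = 0.00416). The overlap with RCC1 was not resolved.

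In ZFAS1 the controls were lowest as well. Its total RNA was 163 and 109 CPM in control, 189 and 179 with SRPIN340, 174 and 211 with Endovion, 174 and 193 with THZ531, and 240.0 and 213 with both drugs. All treated libraries were above both controls, with the combination highest. The log2 fold change was 0.73 with THZ531 and Endovion (SE 0.16, adjusted p = 0.00497, edgeR), and it was 0.43 to 0.50 with the single drugs, with adjusted p between 0.0604 and 0.171. DESeq2 called the change with THZ531 (0.43, adjusted p = 0.0482). Without control replicate 2 the change with both drugs was 0.43 (adjusted p = 0.0537), and without replicate 1 of the combination it was 0.59 (adjusted p = 0.0576). Without control replicate 1 in turn, ZFAS1 was called with SRPIN340 (0.76, adjusted p = 0.00349), Endovion (0.82, adjusted p = 0.00119) and THZ531 (0.75, adjusted p = 0.00117). The size for ZFAS1 thus depended on which control library was used.

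SNHG21 and SNHG20 hold scaRNAs, guides that work in Cajal bodies on spliceosomal RNAs: SCARNA15 lies in SNHG21 and SCARNA16 in SNHG20. SNHG21 had 12.1 and 9.42 CPM in control, 13.6 and 15.0 with SRPIN340, 14.5 and 15.8 with Endovion, 13.6 and 21.0 with THZ531, and 16.4 and 17.3 with both drugs. All treated libraries exceeded both controls, and the log2 fold change was 0.68 with THZ531 (SE 0.21, adjusted p = 0.0223, edgeR) and 0.65 with both drugs (adjusted p = 0.0299). Without control replicate 2 neither was called (0.47, adjusted p = 0.202 and 0.43, adjusted p = 0.251), nor was the first without THZ531 replicate 2 (0.28, adjusted p = 0.430) or with the compared groups alone (0.65, adjusted p = 0.0853), nor the second without either library of the combination (0.63, adjusted p = 0.105 and 0.61, adjusted p = 0.113).

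SNHG20 rose with THZ531 alone, to 23.9 and 22.2 CPM against 13.6 and 16.4 in control. It had 14.8 and 15.7 with SRPIN340, 14.1 and 13.2 with Endovion and 17.7 and 18.3 with both drugs. Both THZ531 libraries were the highest of the 10 and the groups did not overlap. With THZ531 the log2 fold change was 0.62 (SE 0.16, adjusted p = 0.00939, edgeR) and 0.26 with both drugs (adjusted p = 0.250), and the difference between these treatments was -0.36 (SE 0.16, adjusted p = 0.421). The THZ531 call was lost without control replicate 1 (0.49, adjusted p = 0.0672), THZ531 replicate 1 (0.52, adjusted p = 0.0664) or THZ531 replicate 2 (0.61, adjusted p = 0.0505).

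SNHG30, host of SNORD7, had 4.99 and 4.46 CPM in control and 8.23 and 8.31 with Endovion. It had 6.10 and 7.94 with SRPIN340, 5.20 and 5.95 with THZ531, and 6.58 and 5.81 with both drugs, so all treated libraries were above the controls and those with Endovion were highest. Only the change with Endovion was called, at a log2 fold change of 0.80 (SE 0.23, adjusted p = 0.0346, edgeR). It was lost without control replicate 2 (0.68, adjusted p = 0.260), Endovion replicate 1 (0.82, adjusted p = 0.144), Endovion replicate 2 (0.80, adjusted p = 0.144) or replicate 1 of the combination (0.75, adjusted p = 0.0554), and also with overlapping intervals summed (0.79, adjusted p = 0.0595) or with the compared groups alone (0.77, adjusted p = 0.0505).

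SNHG9 was the host that fell with Endovion. It holds SNORA78 inside its counted interval, where the annotated snoRNA itself had 18 reads of 20485. SNHG9 had 98.3 and 100.2 CPM in control, 84.4 and 68.5 with SRPIN340, 61.3 and 76.8 with Endovion, 94.7 and 90.9 with THZ531, and 88.7 and 78.0 with both drugs. The controls were the highest of the 10 libraries and those with Endovion did not overlap them. The log2 fold change with Endovion was -0.52 (SE 0.14, adjusted p = 0.0236, edgeR), and it was -0.38 with SRPIN340 (adjusted p = 0.148), -0.10 with THZ531 and -0.25 with both drugs. Without control replicate 2 the change with Endovion was -0.56 (adjusted p = 0.0947) and without Endovion replicate 1 it was -0.37 (adjusted p = 0.226).

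SNHG14 and SNHG26 were the hosts that fell with THZ531. SNHG14 had 68.5 and 64.3 CPM in control, 68.6 and 62.0 with SRPIN340, 70.6 and 67.3 with Endovion, 49.1 and 52.1 with THZ531, and 61.1 and 50.9 with both drugs. All 4 libraries with THZ531 were below all 6 without it. Unscaled reads of its main intervals follow for control, THZ531 and both drugs in turn. The terminal interval (58.7% of reads) had 1001 and 804, 833 and 644, and 932 and 651. The interval chr15:25109555-25113927 (8.66%) had 195 and 124, 52 and 22, and 64 and 34. The interval chr15:24981775-24982437 (16.9%), which overlaps exons of ENSG00000214265, had 371 and 275, 212 and 162, and 204 and 151. Single intervals were not tested. SNHG14 had a log2 fold change of -0.39 with THZ531 (SE 0.13, adjusted p = 0.0288, edgeR) and -0.24 with both drugs (adjusted p = 0.162). The call was lost when intervals were summed without removing overlaps (-0.33, adjusted p = 0.0686), with the compared groups alone (-0.42, adjusted p = 0.0692), and without control replicate 1 (-0.34, adjusted p = 0.101), THZ531 replicate 1 (-0.40, adjusted p = 0.0757) or THZ531 replicate 2 (-0.49, adjusted p = 0.0522).

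SNHG26 had 3.53 and 2.73 CPM in control, 3.59 and 2.07 with SRPIN340, 2.72 and 2.18 with Endovion, 1.22 and 1.72 with THZ531, and 3.16 and 2.15 with both drugs. The THZ531 libraries were the lowest of the 10, at 33 and 32 reads. The log2 fold change was -1.11 (SE 0.38, adjusted p = 0.0351, edgeR), and the change with both drugs was -0.24 (adjusted p = 0.662). The THZ531 call was lost without control replicate 1 (-0.91, adjusted p = 0.151), control replicate 2 (-1.32, adjusted p = 0.05001), THZ531 replicate 1 (-0.91, adjusted p = 0.164) or THZ531 replicate 2 (-1.42, adjusted p = 0.0574), and also with overlapping intervals summed (-1.15, adjusted p = 0.0604) or with the compared groups alone (-1.13, adjusted p = 0.0585).

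The remaining members were not called in total RNA in any of the 4 comparisons. SNHG8, host of SNORA24, had 429.9 and 303 CPM in control, 290.1 and 255 with THZ531 and a log2 fold change of -0.43 (SE 0.16, adjusted p = 0.0646, edgeR). DESeq2 called this decrease (-0.43, adjusted p = 0.0422), as did the fits without control replicate 2 (-0.70, adjusted p = 0.00408), THZ531 replicate 1 (-0.57, adjusted p = 0.0478), Endovion replicate 1 (-0.42, adjusted p = 0.0412), Endovion replicate 2 (-0.42, adjusted p = 0.0406) or replicate 1 of the combination (-0.47, adjusted p = 0.0488). SNHG29, SNHG25 and SNHG16 had log2 fold changes from -0.15 to 0.13 with standard errors of 0.10 to 0.11. EPB41L4A-AS1 ranged from -0.12 with THZ531 to 0.26 with Endovion, SNHG4 from -0.27 to -0.08, SNHG11 from -0.53 to 0.15 and SNHG31 from -0.88 to -0.14.

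In nascent RNA, 0 of 15 members were called in any comparison with control. The background over 9946 genes was 1.04% with SRPIN340, 2.66% with Endovion, 7.46% with THZ531 and 8.12% with both drugs. At an unadjusted p under 0.05 there were 0 members with SRPIN340, 1 with Endovion, 2 with THZ531 and 2 with both drugs, and DESeq2 called none. Over all 9946 genes there were 1035, 1400, 2105 and 2125 under that p in the same order. The median log2 fold change of the members was 0.03, 0.05, -0.06 and 0.07 in the same order, beside -0.01, -0.01, -0.02 and -0.01 over all genes. Conversions counted in place of T>C reads called SNHG26 (-2.45, adjusted p = 0.0426) and ZFAS1 (1.08, adjusted p = 0.0467) with THZ531 and SNHG26 (-3.15, adjusted p = 0.0192) with both drugs.

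The 8 members with most T>C reads are given in T>C CPM, scaled by TMM over the T>C reads. SNHG29 had 347 and 360.3 in control, 356 and 364 with SRPIN340, 316 and 428 with Endovion, 465 and 351 with THZ531, and 435 and 351 with both drugs, so every treated group overlapped the controls. SNHG8 had 378 and 275 in control, 286 and 259 with SRPIN340, 253 and 350.2 with Endovion, 238 and 224 with THZ531, and 241 and 259.6 with both drugs. SNHG8 was thus lower than both controls in all 4 libraries that received THZ531. Its log2 fold change was -0.50 with THZ531 (SE 0.18, unadjusted p = 0.00634, adjusted p = 0.0689 in edgeR) and -0.39 with both drugs (adjusted p = 0.186), and without control replicate 2 the first was called (-0.71, adjusted p = 0.0260).

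ZFAS1 had 95.3 and 49.8 T>C CPM in control, 94.0 and 95.8 with SRPIN340, 82.9 and 131 with Endovion, 107 and 115 with THZ531, and 145 and 86.5 with both drugs. Only the THZ531 libraries were both above both controls. ZFAS1 had a nascent log2 fold change of 0.60 with THZ531 (SE 0.27, adjusted p = 0.178, edgeR) and 0.67 with both drugs (adjusted p = 0.120). Without control replicate 1 it was called with Endovion (1.11, adjusted p = 0.0405), THZ531 (1.18, adjusted p = 0.0169) and both drugs (1.24, adjusted p = 0.0108), and without replicate 2 of the combination it was called with both drugs (0.98, adjusted p = 0.0443).

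SNHG25, host of SNORD104 and SNORA50C, had 149.98 and 148 in control, 185 and 129.6 with SRPIN340, 151 and 158 with Endovion, 165 and 163 with THZ531, and 166 and 176 with both drugs. The SRPIN340 libraries lay on either side of the controls, and the other treated libraries lay above both. SNHG16, host of the 3 SNORD1 copies, had 76.0 and 106 in control, 126.5 and 106 with SRPIN340, 92.8 and 78.9 with Endovion, 94.4 and 78.3 with THZ531, and 108 and 99.3 with both drugs. SNHG4, host of SNORA74A and SNORA74D, had 72.7 and 76.2 in control, 68.3 and 70.1 with SRPIN340, 51.4 and 87.5 with Endovion, 79.4 and 62.0 with THZ531, and 44.9 and 69.8 with both drugs. The nascent log2 fold changes of these 3 hosts ranged from -0.38 to 0.36.

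For SNHG9 and SNHG14 the nascent difference had the sign of the called difference in total RNA, and neither was called. SNHG9 had 98.5 and 124 T>C CPM in control, 97.4 and 74.5 with SRPIN340, 73.7 and 78.9 with Endovion, 105 and 129 with THZ531, and 114 and 64.9 with both drugs. The Endovion libraries lay below both controls, with a log2 fold change of -0.54 (SE 0.26, adjusted p = 0.318, edgeR). SNHG14 had 90.1 and 91.5 in control, 83.9 and 82.6 with SRPIN340, 95.9 and 120.3 with Endovion, 67.7 and 62.0 with THZ531, and 67.8 and 75.7 with both drugs. All 4 libraries with THZ531 were below the other 6, and the log2 fold change of SNHG14 was -0.48 with THZ531 (SE 0.26, adjusted p = 0.278, edgeR).

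For the other called hosts the nascent counts were too few to follow the total RNA closely. SNHG3 had 41.8 and 18.5 T>C CPM in control and 22.0 and 62.9 with both drugs (log2 fold change 0.45, SE 0.40). SNHG20 had 16.1 and 24.1 in control and 17.6 and 20.3 with THZ531 (-0.08, SE 0.52), and SNHG21 had 16.1 and 8.02 in control and 6.51 and 18.3 with THZ531 (-0.02, SE 0.67). SNHG26 had 9.66 and 6.42 in control, 1.95 and 4.07 with THZ531 and 1.69 and 1.97 with both drugs, and its log2 fold change with both drugs was -2.09 (SE 1.06, adjusted p = 0.239, edgeR). SNHG30 ranged from 1.30 to 10.9 over the 10 libraries.

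The labelled share asks whether the T>C reads of a host moved apart from its other reads. In this test 0 of 15 members were called in any comparison with control (edgeR, interaction of treatment with read class), and the background was 0.191% with SRPIN340, 0.292% with Endovion, 0.312% with THZ531 and 1.06% with both drugs. At an unadjusted p under 0.05 there were 2 members with SRPIN340 and none in the other 3 comparisons. The 2 were SNHG16 (log2 change of the share 0.53, adjusted p = 0.377) and SNHG25 (0.35, adjusted p = 0.552). Of the 9946 genes, 851 were under that p with SRPIN340, 953 with Endovion, 1011 with THZ531 and 1231 with both drugs. DESeq2 called none. The estimates for SNHG8 lay between -0.08 and 0.10, each with a standard error of 0.13. SNHG26 had a labelled share of 15.2% and 12.3% in control, 22.9% and 23.1% with SRPIN340, 15.5% and 9.09% with Endovion, 9.09% and 12.5% with THZ531, and 2.78% and 4.88% with both drugs. Its log2 change with both drugs was -1.90 with a standard error of 1.19, as the last 2 libraries held 2 T>C reads each.

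The combination was also set against each single drug. THZ531 with Endovion differed from THZ531 alone in 0 of 15 members in nascent RNA (0.322% of all genes called) and 0 of 16 in total RNA (0.511%), and from Endovion alone in 0 of 15 (1.21%) and 0 of 16 (8.22%). Endovion and SRPIN340, which differ in dose, differed in 0 members (0.0603% of genes in nascent and 0.034% in total RNA). The interaction of THZ531 and Endovion tests whether the combination departs from the sum of the 2 single changes on the log2 scale. It was called for 0 members, beside 0.302% of genes in nascent and 0.00681% in total RNA. At an unadjusted p under 0.05 there was 1 member, SNHG26 in total RNA (1.23, SE 0.53, adjusted p = 0.355, edgeR), beside 1905 of 14689 genes.

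Reads were also counted on intervals of the snoRNA genes inside the hosts, which allowed a snoRNA to be set beside its host. With at least 500 reads over the 10 libraries these were SNORA50C (8054), SNORA24 (5776), SNORD49A (1596), SCARNA16 (1484), SNORD104 (1426), SNORD116-2 (1044) and SNORD65 (545). SNORA50C lies inside the counted interval of SNHG25, so its reads are part of those of the host, and a further annotated gene, ENSG00000281311, holds the identical reads. A snoRNA has no poly(A) tail in its mature form, and what the reads on these intervals derive from was not tested.

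SNORA50C, whose sequence is shown above, had 622 and 792 reads in control, 611 and 674 with SRPIN340, 710 and 539 with Endovion, 1265 and 989 with THZ531, and 1130 and 722 with both drugs. After scaling, the log2 fold change was 0.85 with THZ531 (SE 0.18, adjusted p = 0.00293, edgeR) and 0.66 with both drugs (adjusted p = 0.0137), while the host interval around it changed by 0.05 and 0.04. The THZ531 call on SNORA50C held without each of the 10 libraries, and the second was lost without control replicate 1 (0.39, adjusted p = 0.123) or replicate 1 of the combination (0.39, adjusted p = 0.226). T>C reads on SNORA50C rose too, by 1.41 with THZ531 (adjusted p = 0.0233) and 1.31 with both drugs (adjusted p = 0.0360). Neither held without control replicate 1 (1.03, adjusted p = 0.215 and 0.93, adjusted p = 0.268). The first was also lost without THZ531 replicate 1 (1.504, adjusted p = 0.0634) or 2 (1.32, adjusted p = 0.165), and the second in DESeq2 (1.31, adjusted p = 0.0734) and without replicate 1 of the combination (0.95, adjusted p = 0.385), and with the compared groups alone (1.31, adjusted p = 0.0580). With overlapping intervals summed neither was called (1.39, adjusted p = 0.143 and 1.30, adjusted p = 0.160), nor with conversions in place of T>C reads (1.29, adjusted p = 0.552 and 1.48, adjusted p = 0.482).

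SCARNA16 had 135 and 131 reads in control, 95 and 92 with SRPIN340, 159 and 91 with Endovion, 200 and 134 with THZ531, and 295 and 152 with both drugs. Its log2 fold change was 1.02 with both drugs (SE 0.26, adjusted p = 0.00930, edgeR) and 0.50 with THZ531 (adjusted p = 0.172), beside 0.26 and 0.62 for its host SNHG20. Without replicate 1 of the combination the first was 0.56 (adjusted p = 0.210). SNORD49A rose with THZ531 (0.65, SE 0.21, adjusted p = 0.0310), beside 0.09 for its host SNHG29, and this call was lost without control replicate 1 (0.56, adjusted p = 0.131), control replicate 2 (0.70, adjusted p = 0.0851), THZ531 replicate 1 (0.61, adjusted p = 0.101), THZ531 replicate 2 (0.58, adjusted p = 0.166) or replicate 1 of the combination (0.59, adjusted p = 0.0554), and also without the filter on low counts (0.62, adjusted p = 0.0653) or with the compared groups alone (0.62, adjusted p = 0.100). The differences between snoRNA and host were not tested.

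SNORA24 and SNORD65 stood out by their labelled share. Over the 10 libraries 17.0% of the reads on SNORA24 had a conversion, with single libraries from 10.2% to 26.9%, and 28.4% of those on SNORD65 did, from 15.3% to 48.8%. The hosts of these snoRNAs, SNHG8 and SNHG29, had 3.70% to 4.88% and 2.92% to 4.23%. The other snoRNA intervals had 2.30% (SNORD116-2), 2.36% (SCARNA16), 3.20% (SNORD49A), 4.47% (SNORA50C) and 5.19% (SNORD104). T>C reads on SNORA24 numbered 180 and 136 in control and 107 and 48 with SRPIN340, a log2 fold change of -1.14 (SE 0.30, adjusted p = 0.0359, edgeR) that DESeq2 did not call (adjusted p = 0.158). It was lost without control replicate 1 (-1.07, adjusted p = 0.110), control replicate 2 (-1.18, adjusted p = 0.186) or SRPIN340 replicate 2 (-0.64, adjusted p = 0.718), and also with overlapping intervals summed (-1.14, adjusted p = 0.449), with the compared groups alone (-1.14, adjusted p = 0.164) or with conversions in place of T>C reads (-0.93, adjusted p = 0.475).

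**Figure D5:**
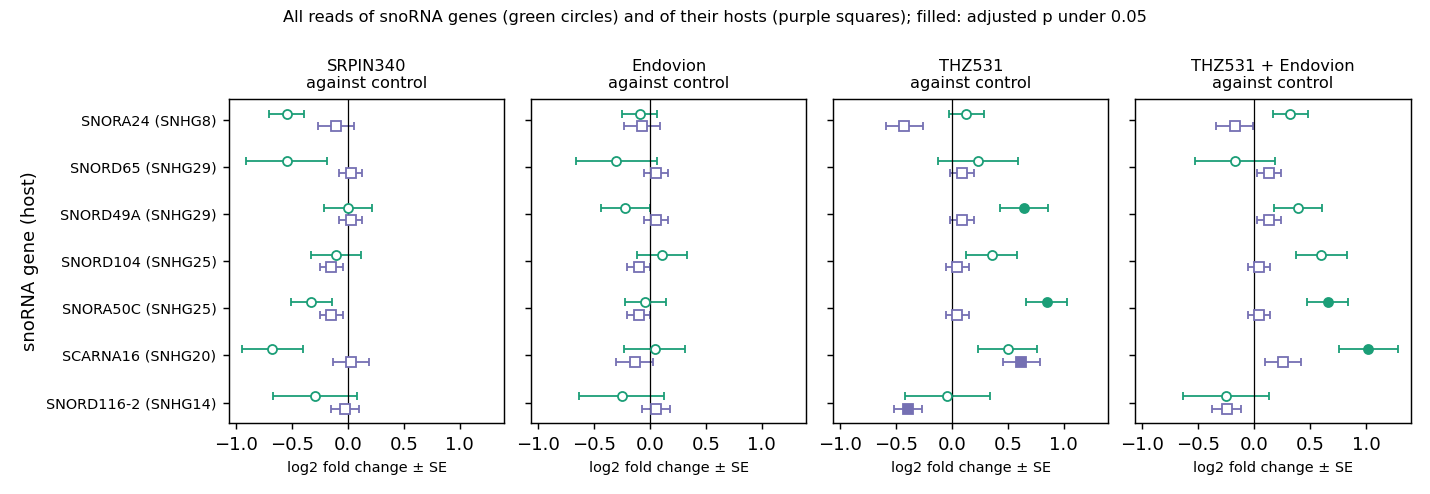
Log2 fold change against control with its standard error for all reads on 7 snoRNA genes (green circles) and on their hosts (purple squares). Filled symbols mark an adjusted p under 0.05 (edgeR), and among the snoRNAs these are SNORA50C and SNORD49A with THZ531 and SNORA50C and SCARNA16 with both drugs.

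Protein-coding genes that also carry snoRNAs on the same strand give a second kind of host. In total RNA 65 of 222 of them were called with THZ531 (49 up, 16 down), 70 of 222 with both drugs (57 up, 13 down), 41 of 222 with Endovion (36 up, 5 down) and 8 of 222 with SRPIN340, all up. The shares called were 29.3% with THZ531, 31.5% with both drugs and 18.5% with Endovion. Beside them stand 30.7%, 29% and 11.4% of all genes, and 1.96% with SRPIN340. Taken in both directions together, the shares with THZ531 and with both drugs lay near the background. Of all 14689 genes, 2437 rose and 2071 fell with THZ531, 2438 and 1821 with both drugs, and 1307 and 373 with Endovion. Differences in the balance of directions were not tested. The median log2 fold change of these protein-coding hosts was 0.11 with THZ531 and 0.14 with both drugs, beside -0.02 and 0.04 for the SNHG members. NFATC3, a calcium-regulated transcription factor, had the smallest p among those that rose with THZ531 (0.91, adjusted p = 8.35e-05, edgeR) and both drugs (1.053, adjusted p = 3.90e-05), and DNAJC16, a chaperone of the DnaJ family, among those that fell (-1.76, adjusted p = 2.46e-06 and -1.34, adjusted p = 2.90e-05). In nascent RNA 14 of 196 were called with THZ531 (7.14%, beside 7.46% of all genes) and 16 of 196 with both drugs (8.16%, beside 8.12%), led by PABPC4, a poly(A)-binding protein (1.40, adjusted p = 4.14e-05 and 1.62, adjusted p = 1.64e-06). The PABPC4 call with THZ531 was lost with conversions in place of T>C reads, and that with both drugs was not. Of 1344 other lncRNAs, 244 fell and 67 rose with THZ531, with a median of -0.45, and 205 fell and 54 rose with both drugs, with a median of -0.37. The shares called were 23.1% and 19.3%, beside 30.7% and 29% of all genes. HELLPAR led those that fell (-2.41, adjusted p = 8.16e-07 with THZ531) and ALMS1-IT1 those that rose (3.31, adjusted p = 8.66e-07).

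The proteins that build snoRNPs and the factors of nonsense-mediated decay were looked at in the same fits. Of 18 genes for snoRNP core and assembly proteins, 6 rose and none fell in total RNA with THZ531, and 4 rose and none fell with both drugs. These are 33.3% and 22.2% of the list, beside 16.6% of all genes that rose in each comparison. With THZ531 14.1% of all genes fell. Taken in either direction, 30.7% and 29% of all genes were called. Whether the list rose more often than all genes was not tested. NOP58, a core protein of box C/D particles, rose with THZ531 in total RNA (0.95, adjusted p = 0.00118, edgeR). NAF1, an assembly factor of H/ACA particles, rose with both drugs (1.62, adjusted p = 0.00385). With Endovion 2 rose (8.9% of all genes did) and 1 fell (2.54%). NAF1 led those that rose (1.46, adjusted p = 0.0169, edgeR), and NOP56, a partner of NOP58, fell (-0.49, adjusted p = 0.0246). With SRPIN340 none was called, beside 1.96% of all genes. Without control replicate 2 neither Endovion call held (NAF1 1.11, adjusted p = 0.153, NOP56 -0.54, adjusted p = 0.0856). Leaving out Endovion replicate 1 also ended both (NAF1 1.30, adjusted p = 0.114, NOP56 -0.33, adjusted p = 0.243), and leaving out Endovion replicate 2 ended that of NAF1 (1.60, adjusted p = 0.0622).

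Of 19 decay factors, 2 rose and 4 fell in total RNA with THZ531, and 1 rose and 5 fell with both drugs, 31.6% called in each, beside 30.7% and 29% of all genes. EIF4A3, a core protein of the exon junction complex, had the smallest p among those that rose, at 1.04 with THZ531 (adjusted p = 0.000873, edgeR) and 1.02 with both drugs (adjusted p = 0.00106). SMG9, a regulator of the decay kinase SMG1, had it among those that fell, at -1.404 (adjusted p = 0.000431) and -1.04 (adjusted p = 0.00330). EIF4A3 also rose in nascent RNA with THZ531 (0.96, adjusted p = 3.73e-05) and with both drugs (1.04, adjusted p = 6.36e-06). SMG8, another regulator of SMG1, fell in nascent RNA with THZ531 (-1.5035, adjusted p = 0.00832) and with both drugs (-1.56, adjusted p = 0.00653). Of 17 decay factors tested in nascent RNA, 1 rose and 1 fell with THZ531 (11.8% called, beside 7.46% of all genes), and 1 rose and 4 fell with both drugs (29.4%, beside 8.12%). The SMG8 calls were lost without control replicate 1 (-1.31, adjusted p = 0.0755 and -1.37, adjusted p = 0.0552), and the first was lost without THZ531 replicate 1 (-1.28, adjusted p = 0.125) or with conversions in place of T>C reads (-1.42, adjusted p = 0.0558) and the second without replicate 2 of the combination (-1.397, adjusted p = 0.0839). Of 19 mRNAs known as targets of this decay, 3 rose and 4 fell in total RNA with THZ531, and 4 rose and 3 fell with both drugs, 36.8% called in each, beside 30.7% and 29% of all genes. Their median log2 fold change was -0.24 and 0.02. ATF3, a stress-induced transcription factor, led the rise with both drugs (1.77, adjusted p = 3.45e-05), GADD45B the rise with THZ531 (1.42, adjusted p = 0.000132) and TBL2 the fall with THZ531 (-1.07, adjusted p = 5.86e-05). Several genes stand in both of these lists, since decay factors are themselves targets of the pathway.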

How the data were processed

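For each library the authors deposited a SLAM-DUNK table of 3′ intervals, which holds raw counts: all reads, reads with a T>C conversion, the conversions themselves and the T positions covered. The deposited conversion rate (a fraction) and read CPM (kept as a score) were not used. The submitters' processing notes name hg38, Bowtie2 2.3.4.1, SAMtools 1.6 and DESeq2 1.38.2. SLAM-DUNK settings and the use of molecular identifiers in counting are not given in the sources used here. The T count of 185 of 185 member intervals equalled that of hg38.

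Of 104653 intervals, 92826 on primary chromosomes matched a GENCODE v44 transcript. Where intervals of a gene overlapped on a strand, the one with most reads was kept, which left 57467, summed to 31015 genes. edgeR 4.0.16 (R 4.3.3) was run on the 10 libraries with 5 group means (5 residual degrees of freedom), using TMM scaling, its default expression filter and the quasi-likelihood test with robust dispersions. The labelled share was tested as treatment by read class with library as a block. DESeq2 1.42.0, other scalings and filters, and leaving out each library were alternatives. The procedure was tested on simulated data. Named members are all those with reads, with values in each library for members called against control and for the 8 with most T>C reads, and for each gene list the gene with the smallest p among those called in a direction. Members and lists were chosen with earlier results of these data known. Correlations of same-numbered deviations in T>C reads ran from -0.0697 to 0.0600 over 10 pairs of groups. Counting noise lowers such correlations, so this could not exclude a pairing by replicate number. Replicates differed by more than sampling noise (chi-square per degree of freedom 3.39 to 4.65).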

Additional observations from a re-analysis of the deposited data

How the results depend on the processing

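No result changed sign among the 11 called member changes, which kept their call in 58 of 66 other settings and in 83 of 110 fits that left out a library. The count of members called in nascent RNA went from 0 to 2 with THZ531 and to 1 with both drugs when conversions replaced T>C reads, and leaving out a library gave 0 to 1 with Endovion, THZ531 or both drugs. For total RNA, SRPIN340 went from 0 to 1 with DESeq2, to 3 without a filter on low counts, and to between 0 and 2 without a library. THZ531 went from 5 to 3 with the plain sum of intervals, to 1 with the compared groups alone, and to between 0 and 6 without a library. Endovion ranged from 0 to 4 and both drugs from 1 to 3 without a library. The replicate number as a block gave 3, 5 and 3 members with Endovion, THZ531 and both drugs in total RNA, and 0 with SRPIN340 and in nascent RNA, and changed no count. The median nascent change with Endovion was -0.0790 when scaled by all reads and -0.0764 without the filter, and that with THZ531 was 0.0442 with the plain sum. The median total change without the filter was -0.0464 with SRPIN340 and -0.1055 with THZ531. Without a library the nascent medians ranged from -0.0846 to 0.02755 (SRPIN340) and -0.2547 to 0.0756 (both drugs), and the total medians from -0.04255 to 0.0479 (SRPIN340), -0.1354 to -0.00742 (Endovion), -0.1142 to 0.0940 (THZ531) and -0.01905 to 0.0559 (both drugs). Each cause was not tested. Of 680 recomputed counts of the other gene lists, 509 stayed within 1.5 times the reported count. With 2 libraries per group and as few as 17 reads in a library on a tested host (SNHG31), small changes of the less read hosts were not detectable at this depth.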
